A study of Homo sapiens with 8 samples.

Results

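HCT116 is an established human colorectal cancer cell line, here carrying a stably introduced, doxycycline-inducible short hairpin RNA (shRNA) against HOXB8. The comparison described is that of the induced lines with different hairpins, sh2 with doxycycline (sh2-dox) against sh1 with doxycycline (sh1-dox), 2 libraries each, after 72 hours in 1 ug/ml doxycycline. The same lines kept for 72 hours without the drug (sh2-no-dox and sh1-no-dox, 2 libraries each) complete the 8 libraries. PolyA-selected RNA was sequenced, and levels are FPKM, which relate the fragments of a gene to its length and to the library size. Genes were taken in by their level alone: 11761 of the 17166 genes in the table averaged 1 FPKM or more across the 4 doxycycline libraries, and 5405 did not. At that limit SIRPB1, PRTN3 and ASB9 stood just inside with a mean of 1.0 FPKM, and CGB3 (0.998), ZNF555 (0.995) and IDO1 (0.995) just outside. Each hairpin is a line of its own, both lines target the same gene, and no doxycycline library without a HOXB8 hairpin was analysed. The hairpin, its other targets and the history of the line therefore cannot be told apart. The labels do not say whether a line is a clone or a pool, nor whether the libraries of a group came from separate cultures, so p-values measure the spread between these libraries, which may be technical.

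An inducible shRNA is transcribed when doxycycline is present and is processed into a small RNA that guides the RNA interference machinery to a matching messenger. HOXB8 is a homeobox transcription factor of the HOXB cluster. Different hairpins against the same gene share the intended target but not their seed sequences, so they are commonly run side by side, and genes that differ between them are read apart from the shared response. The series is titled for HOXB8, MYC and BACH1, the last a heme-regulated repressor that competes with NRF2 at antioxidant genes.

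Only a few genes separated the induced lines. Against sh1-dox, 7 of the 11761 genes (0.0595%) passed an adjusted p of 0.05 in limma, 2 higher and 5 lower in sh2-dox. CPA4, a secreted zinc carboxypeptidase, STC2, the secreted stress glycoprotein stanniocalcin-2, CAV1, the coat protein of caveolae, and ANXA3, a calcium-dependent phospholipid-binding annexin, were lower by 18.5% to 33.8%. KIAA0040, a little characterised protein, was 36.7% higher. The remaining pair, C18orf32 and the read-through model RPL17-C18orf32, moved in opposite directions and share sequence. At an unadjusted p of 0.05, 1163 genes (9.89%) passed, 691 (5.88%) higher and 472 (4.01%) lower. After median ratio scaling that split was 590 higher and 589 lower, and after quantile normalization 648 higher and 558 lower. Both sh2-dox libraries lay above both sh1-dox libraries in 2385 genes (20.3%) and below both in 1922 genes (16.3%). The 7 calls are not stable to single libraries. Leaving out any 1 library lost most of the 7, and in some of these fits genes outside the 7 passed instead. Without replicate 2 of sh1-dox all 7 were lost.

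The spread between repeats was of the same order as the distance between the lines. The median absolute difference of log2(FPKM + 1) was 0.0787 between the sh2-dox repeats and 0.0662 between the sh1-dox repeats. Between single sh2-dox and sh1-dox libraries it was 0.0681 to 0.0882. Repeats of any group correlated across genes at r = 0.997 to 0.998, and sh2-dox with sh1-dox libraries at 0.996 to 0.997. The 95% interval of a gene's line difference reached a median of 0.145 to either side on the log2 scale, with 0.101 at the 10th percentile and 0.231 at the 90th. It was widest in weak genes. Among the 2831 genes at 1 to 5 FPKM the median was 0.21 and 0 were called by limma, and among the 704 genes of at least 100 FPKM it was 0.0954, again with 0 called. The 3 genes whose log2(FPKM + 1) differed by 1 or more were not called, and each has a near-identical copy or a library at 0. SMIM11A was listed at 0 in both sh2-dox libraries and at 3.25 and 1.17 FPKM in the sh1-dox libraries, and SULT1A3 and SULT1A4 are treated with the sequence-sharing genes.

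The deposited columns summed to 440063 to 446889 FPKM, and 15592 to 15762 genes were above 0. The epithelial keratins KRT8, KRT18 and KRT19 and the adhesion genes EPCAM and CDH1 were abundant, while CEACAM5, CDH17 and VIL1 stayed under 1 FPKM in every library. The 9 epithelial markers in the table summed to 2598.08 and 2599.45 FPKM in sh2-dox and to 2713.92 and 2734.75 FPKM in sh1-dox, most of it keratin. Fibroblast markers summed to 6.73 and 8.47 FPKM in sh2-dox and 6.36 and 8.27 FPKM in sh1-dox, endothelial markers to 0.47 to 0.59 FPKM over these 4 libraries.

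The targeted gene had about the same level in both induced lines. HOXB8 was at 7.39 and 6.41 FPKM in sh2-dox and at 6.54 and 5.74 FPKM in sh1-dox. Without doxycycline it was at 17.33 and 18.38 FPKM in the sh2 line and at 20.80 and 20.42 FPKM in the sh1 line. The 4 induced libraries are thus all below the 4 uninduced ones, and the ranges of the induced lines overlap. The log2 difference, sh2-dox minus sh1-dox, was 0.15 with an interval of -0.02 to 0.31 (limma, adjusted p = 0.563). That interval holds both equal levels and a higher remaining level in sh2-dox. The change with doxycycline on the log2 scale was -1.26 in the sh2 line and -1.60 in the sh1 line. The difference of these effects was 0.34 with an interval of 0.11 to 0.58 (limma, unadjusted p = 0.00874, adjusted p = 0.992). Of its cluster neighbours, HOXB7 averaged 19.8 ± 1.08 FPKM in sh2-dox and 21.3 ± 0.933 FPKM in sh1-dox (SD, n = 2 each; limma, adjusted p = 0.623). HOXB9 averaged 10.6 ± 0.177 FPKM in sh2-dox and 11.5 ± 0.0354 FPKM in sh1-dox (adjusted p = 0.536). BACH1 had 4.13 and 4.09 FPKM in sh2-dox, against 4.32 and 4.16 FPKM in sh1-dox (adjusted p = 0.909, interval -0.19 to 0.12). MYC, the growth-promoting transcription factor, had 148.06 and 134.76 FPKM in sh2-dox, against 152.08 and 151.16 FPKM in sh1-dox. Its difference of -0.10 did not pass (adjusted p = 0.520, interval -0.21 to 0.01). Without doxycycline MYC was at 151.08 and 152.77 FPKM in the sh2 line and 177.69 and 186.49 FPKM in the sh1 line. That line difference of -0.26 passed in limma (adjusted p = 0.032).

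**Figure D1:**
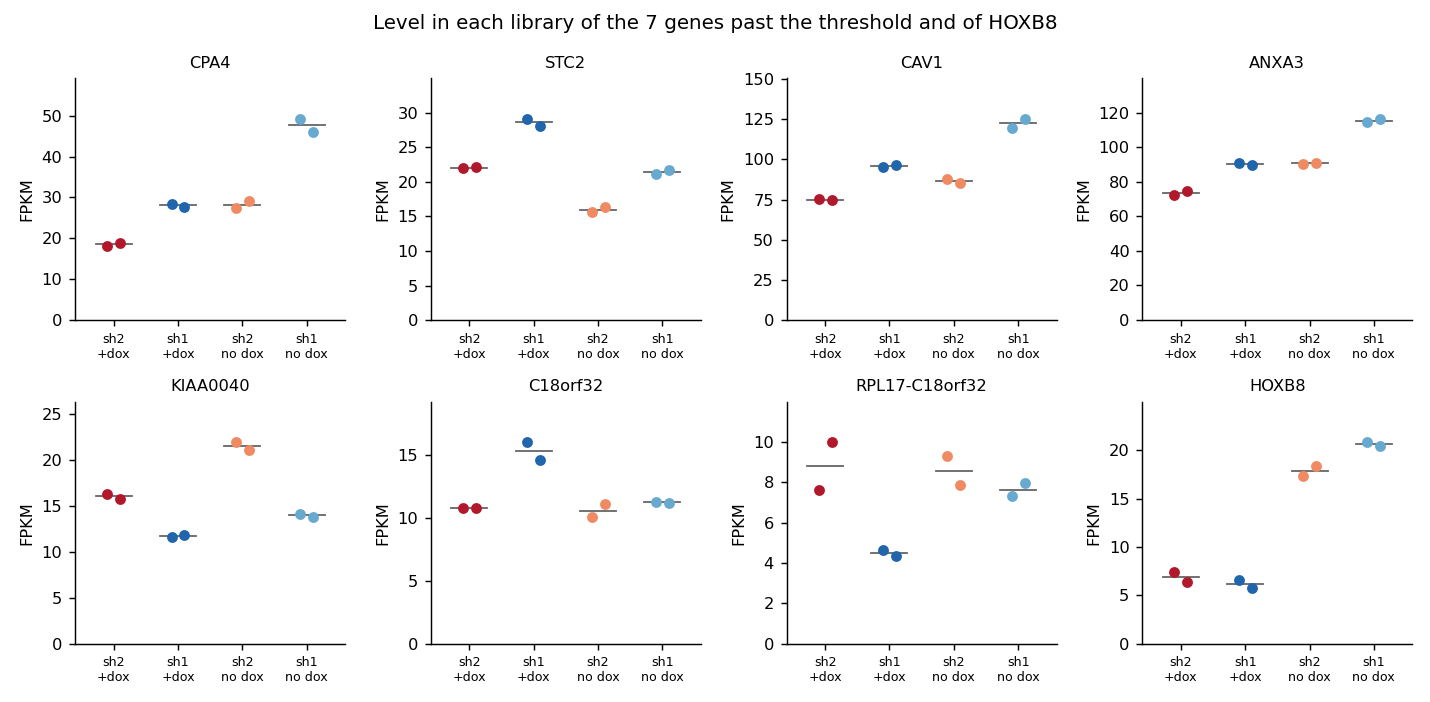
Level (FPKM, from 0) of the 7 genes past the threshold and of HOXB8 in each of the 8 libraries; points are single libraries, lines are group means of 2. CPA4, STC2, CAV1 and ANXA3 are lower in sh2 than in sh1 with and without doxycycline, KIAA0040 is higher in both, and HOXB8 is low in both induced lines.

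To show the sequence at the genes that lead the comparison, the promoter windows of CPA4 (the lowest adjusted p), KIAA0040 (the higher gene with no shared sequence) and CHAC1 (the stress response gene with the largest difference) are given. Each runs from 250 bases before to 50 bases after the RefSeq start, 5′ to 3′ on the gene's strand, in build GRCh38.p14. The windows are chr7:130292911-130293210 (plus strand) for CPA4, chr1:175192938-175193237 (minus strand) for KIAA0040 and chr15:40953221-40953520 (plus strand) for CHAC1. Capitals mark the AP-1 motif TGANTCA and the TEAD motif GGAATG in CPA4, the antioxidant element TGANNNNGC in KIAA0040 and the C/EBP-ATF motif TGATGNAA in CHAC1.
CPA4: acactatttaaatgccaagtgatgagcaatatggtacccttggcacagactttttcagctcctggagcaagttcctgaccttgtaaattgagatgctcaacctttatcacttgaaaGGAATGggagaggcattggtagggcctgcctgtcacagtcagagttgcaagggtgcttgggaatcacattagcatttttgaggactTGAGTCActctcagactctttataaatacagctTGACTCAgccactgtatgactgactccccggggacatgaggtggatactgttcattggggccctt
KIAA0040: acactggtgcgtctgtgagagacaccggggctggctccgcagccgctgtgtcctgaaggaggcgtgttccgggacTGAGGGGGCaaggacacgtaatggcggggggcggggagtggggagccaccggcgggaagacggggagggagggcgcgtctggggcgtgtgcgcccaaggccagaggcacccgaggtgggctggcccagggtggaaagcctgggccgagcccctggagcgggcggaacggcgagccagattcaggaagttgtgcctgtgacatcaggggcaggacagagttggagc
CHAC1: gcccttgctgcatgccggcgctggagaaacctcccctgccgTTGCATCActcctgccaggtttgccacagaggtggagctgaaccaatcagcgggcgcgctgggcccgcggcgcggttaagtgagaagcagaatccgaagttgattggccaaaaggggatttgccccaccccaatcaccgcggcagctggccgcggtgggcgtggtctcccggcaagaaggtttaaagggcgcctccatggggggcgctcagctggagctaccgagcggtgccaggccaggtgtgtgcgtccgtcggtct

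Motifs were searched on both strands in all 35116 windows of the table, and were chosen with the values of these genes known. TGANTCA, the site of the AP-1 factors that immediate early signalling induces, was in 7.71% of windows. In CPA4 it began 48 and 15 bases before the start, and the nearer match overlaps a match of the antioxidant element. GGAATG, the site of the TEAD partners of YAP, was in 14.0% of windows and began 134 bases before the CPA4 start. TGATGNAA, a composite site that ATF4 and C/EBP factors bind, was in 3.62% of windows and began 209 bases before the CHAC1 start. TGANNNNGC, the core that NRF2 and BACH1 bind with small MAF proteins, was in 41.8% of windows and began 175 bases before the KIAA0040 start. Of 5 other motifs searched, the E-box CACGTG (7.26% of windows), the HOX-PBX motif TGATTNAT (2.82%), the D-box TTATGNAA (3.3%), the serum response element (0.0342%) and the sterol element TCACNCCAC (1.13%), none was in the 3 printed windows. A match is a description of letters and says nothing of binding in these cells.

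CPA4 showed the clearest difference. Its level was 18.21 and 18.90 FPKM in sh2-dox and 28.32 and 27.77 FPKM in sh1-dox, groups that lie far apart beside their own spread. The log2 difference was -0.57 ± 0.05 (SE; limma, adjusted p = 0.00492). Without doxycycline CPA4 was at 27.50 and 29.05 FPKM in the sh2 line, against 49.28 and 46.00 FPKM in the sh1 line. The line difference there was -0.73 (adjusted p = 0.00043), so the gene was lower in sh2 in both states. CPA4 was called under 16 of 20 alternative settings.

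Among the other lower genes, CAV1 was at 75.07 and 74.79 FPKM in sh2-dox and 95.09 and 96.58 FPKM in sh1-dox. Its log2 difference was -0.35 ± 0.04 (SE; limma, adjusted p = 0.0232), and without doxycycline it was -0.50 (adjusted p = 0.000597). ANXA3 was at 72.35 and 74.98 FPKM in sh2-dox and 91.03 and 89.70 FPKM in sh1-dox, a difference of -0.29 (adjusted p = 0.0289) that measured -0.34 without the drug (adjusted p = 0.00352). In neither gene did any sh2 library reach the sh1 libraries of the same state. STC2 was at 21.97 and 22.19 FPKM in sh2-dox and 29.16 and 28.09 FPKM in sh1-dox (difference -0.36, adjusted p = 0.0289). Unlike the other 3, its level was higher with the drug than without in both lines, since it stood at 15.58 and 16.30 FPKM in sh2-no-dox and 21.12 and 21.76 FPKM in sh1-no-dox. The line difference without doxycycline was -0.41 (adjusted p = 0.00403). Under 20 alternatives CAV1 was called in 10 and STC2 and ANXA3 in 7 each.

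KIAA0040 was at 16.25 and 15.78 FPKM in sh2-dox and 11.61 and 11.83 FPKM in sh1-dox, with no overlap. The difference was 0.42 ± 0.05 (SE; limma, adjusted p = 0.0232). Without doxycycline the lines stood further apart, with 21.88 and 21.02 FPKM in sh2 and 14.13 and 13.81 FPKM in sh1 (difference 0.58, adjusted p = 0.000758). It was called under 8 of 20 alternatives.

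C18orf32 and RPL17-C18orf32 need to be read as a pair. C18orf32 was at 10.78 and 10.74 FPKM in sh2-dox and 15.98 and 14.59 FPKM in sh1-dox (log2 difference -0.47; limma, adjusted p = 0.0289). RPL17-C18orf32, a model of transcripts that run from the ribosomal protein gene RPL17 into C18orf32, was at 7.63 and 9.98 FPKM in sh2-dox and 4.63 and 4.33 FPKM in sh1-dox (difference 0.83, adjusted p = 0.0289). Summed, they gave 18.41 and 20.72 FPKM in sh2-dox and 20.61 and 18.92 FPKM in sh1-dox, groups that overlap. The difference of the sum was -0.01, with an interval of -0.16 to 0.13 (adjusted p = 0.964), and 5 genes in all were then called. In the GENCODE v29 transcripts, 80.6% and 72.8% of the 50-base windows of the shorter C18orf32 transcripts, and 16.3% of those of the longest, also occur in the read-through model. Of the windows of the read-through transcripts, 50.3% and 34.0% occur in RPL17. RPL17 was at 1058.18 to 1116.99 FPKM in the doxycycline libraries and is not in the sum. Reads from shared sequence cannot tell the levels of these models apart, so neither call stands as a difference of 1 gene. They were also the only calls that did not pass without doxycycline (adjusted p = 0.528 for C18orf32 and 0.517 for the read-through model). Under 19 alternatives C18orf32 was called in 6 and RPL17-C18orf32 in 7.

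**Figure D2:**
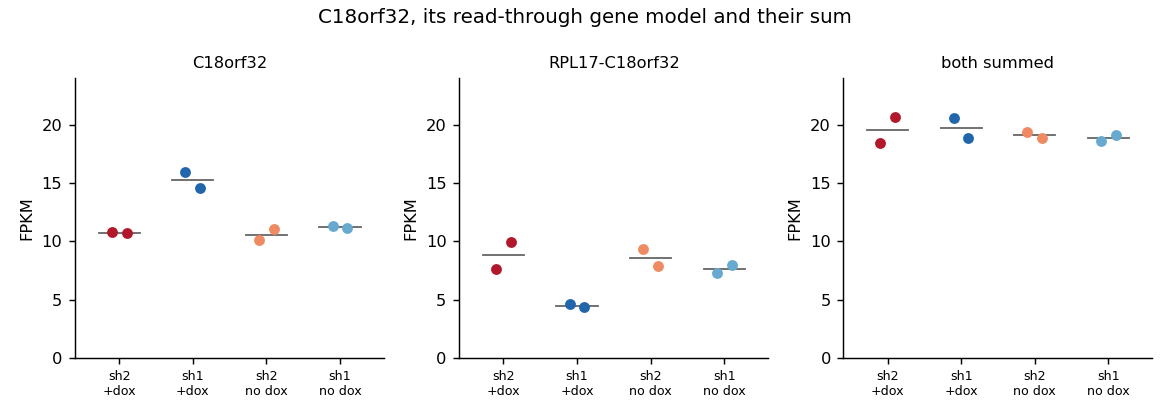
Level (FPKM) of C18orf32, of RPL17-C18orf32 and of their sum in each library; points are single libraries and lines are means of 2. The sh1-dox libraries are high in C18orf32 and low in RPL17-C18orf32, while the sums lie between 18.41 and 20.72 FPKM in all 8 libraries.

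Other near-identical copies were not called between sh2-dox and sh1-dox singly in the main fit, nor when summed. MAGEA2, a cancer-testis antigen gene, had a 40.5% lower mean FPKM in sh2-dox (adjusted p = 0.234), and MAGEA2 and MAGEA2B summed to 49.05 and 47.91 FPKM in sh2-dox, against 50.93 and 52.53 FPKM in sh1-dox. Those sums do not overlap, with a log2 difference of -0.09 and an interval of -0.18 to -0.00098 (limma, adjusted p = 0.498). Singly, MAGEA2 was called in the fit on the 4 doxycycline libraries alone. Without doxycycline MAGEA2 went the other way, at 13.65 and 13.74 FPKM in sh2 and 11.26 and 6.52 FPKM in sh1. MAGEA2B was lower in sh2 there and was called (log2 difference -0.27; limma, adjusted p = 0.035), against 0.06 with doxycycline. The sum of both measured -0.08 without the drug. The sulfotransferase copies SULT1A3 and SULT1A4 had log2 differences of 1.10 and -1.02, and their sum was 23.67 and 29.92 FPKM in sh2-dox and 27.84 and 27.12 FPKM in sh1-dox (adjusted p = 0.909), which overlap.

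The same lines without doxycycline lay further apart. There, 163 of the 11761 genes (1.39%) passed an adjusted p of 0.05 in limma, 91 higher and 72 lower in sh2-no-dox. The direction of the excess depends on scaling, since median ratio scaling gave 66 higher and 125 lower and quantile normalization 62 higher and 70 lower. The group means here come from other libraries than those of the induced comparison, but each gene's variance was estimated from all libraries together. Genes called without doxycycline were therefore partly chosen for close repeats with doxycycline as well. That favours the shares without overlap and the unadjusted count given below, which are not fully separate evidence. Of the 163 genes, 158 had the same sign with doxycycline and 5 the opposite. Of the 91 higher ones, 74 (81.3%) had both sh2-dox libraries above both sh1-dox libraries, against 20.3% of all genes. Among the 72 lower ones, 58 (80.6%) had both below, against 16.3%. With doxycycline 106 of the 163 passed unadjusted in the same direction, and 5 passed adjusted. The median absolute log2 difference of the 163 was 0.16 with doxycycline and 0.349 without, but they were chosen on the second value, which favours a larger size there. Over all 11761 genes, which were not so chosen, the median absolute difference was 0.0562 with doxycycline and 0.0713 without. Across genes the line differences in the 2 states correlated at r = 0.45 (Spearman rho 0.453), a description over genes, which are not independent replicates.

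**Figure D3:**
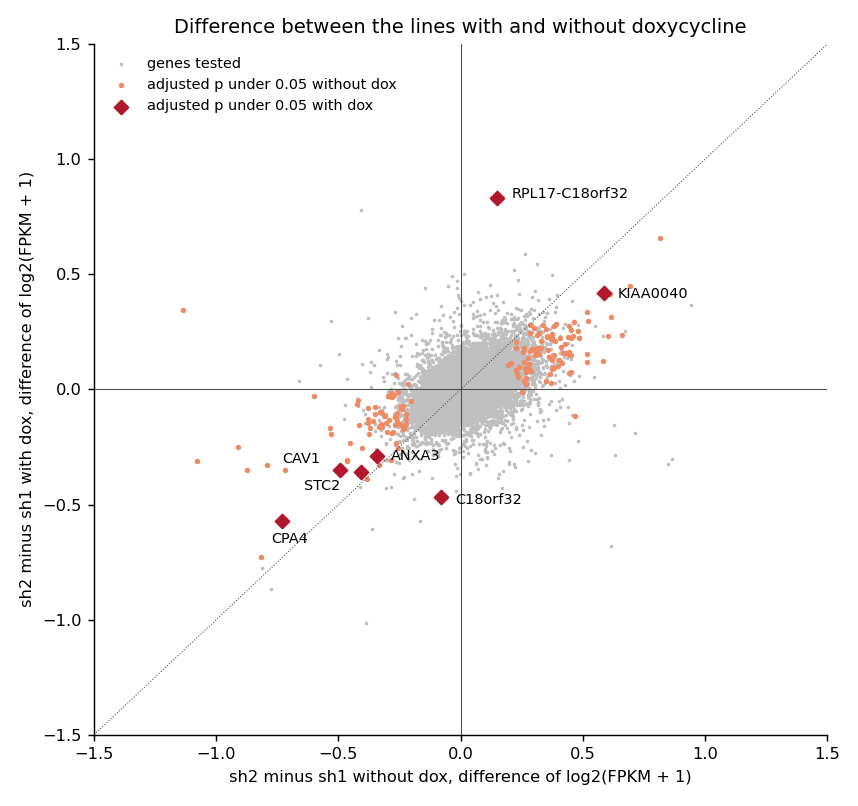
Difference of mean log2(FPKM + 1), sh2 minus sh1, with doxycycline (y axis) against the same without (x axis), 1 point a gene; 2 genes lie beyond the axes and the dotted line marks equality. Genes called without doxycycline mostly keep their sign with it at a smaller size, and C18orf32 and RPL17-C18orf32 lie near 0 on the x axis.

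Whether the line difference itself changed with the drug was tested by the difference of the doxycycline effects, sh2 minus sh1. limma called 0 of 11761 genes (0.0%), and 570 (4.85%) passed unadjusted. From the genes of low p, CYR61, a secreted matricellular protein that YAP induces, and THBS1, thrombospondin-1, are described here and were chosen after their values were seen. CYR61 was at 5.67 and 4.38 FPKM in sh2-dox and 6.26 and 6.01 FPKM in sh1-dox, against 7.47 and 6.88 FPKM in sh2-no-dox and 14.82 and 13.93 FPKM in sh1-no-dox. THBS1 was at 3.97 and 2.85 FPKM in sh2-dox and 4.87 and 4.02 FPKM in sh1-dox, against 3.93 and 4.20 FPKM in sh2-no-dox and 10.21 and 9.22 FPKM in sh1-no-dox. In both the sh1-no-dox libraries stand alone at the top. The unadjusted p of this difference was 0.000471 for CYR61 and 0.000881 for THBS1, and 0.706 for each when adjusted over all genes. Genes of lower unadjusted p in limma included CYB561D2 (7.9e-05) and MAGEA2 (0.000205), whose line differences had opposite signs in the 2 states. MAGEA2 summed with its copy MAGEA2B kept its sign, at -0.09 with doxycycline and -0.08 without. KRTAP2-3 (0.00023) and PROSER2 (0.000234) also had lower p, and both were highest in sh1-no-dox.

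Gene groups were described through 33 pathway lists by how many members had induced libraries that did not overlap. The lists were written with earlier results of these data known, so their counts are descriptions beside the shares over all genes tested (20.3% above, 16.3% below). Median log2 differences with doxycycline given for lists kept their sign after quantile normalization and after median ratio scaling.

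**Figure D4:**
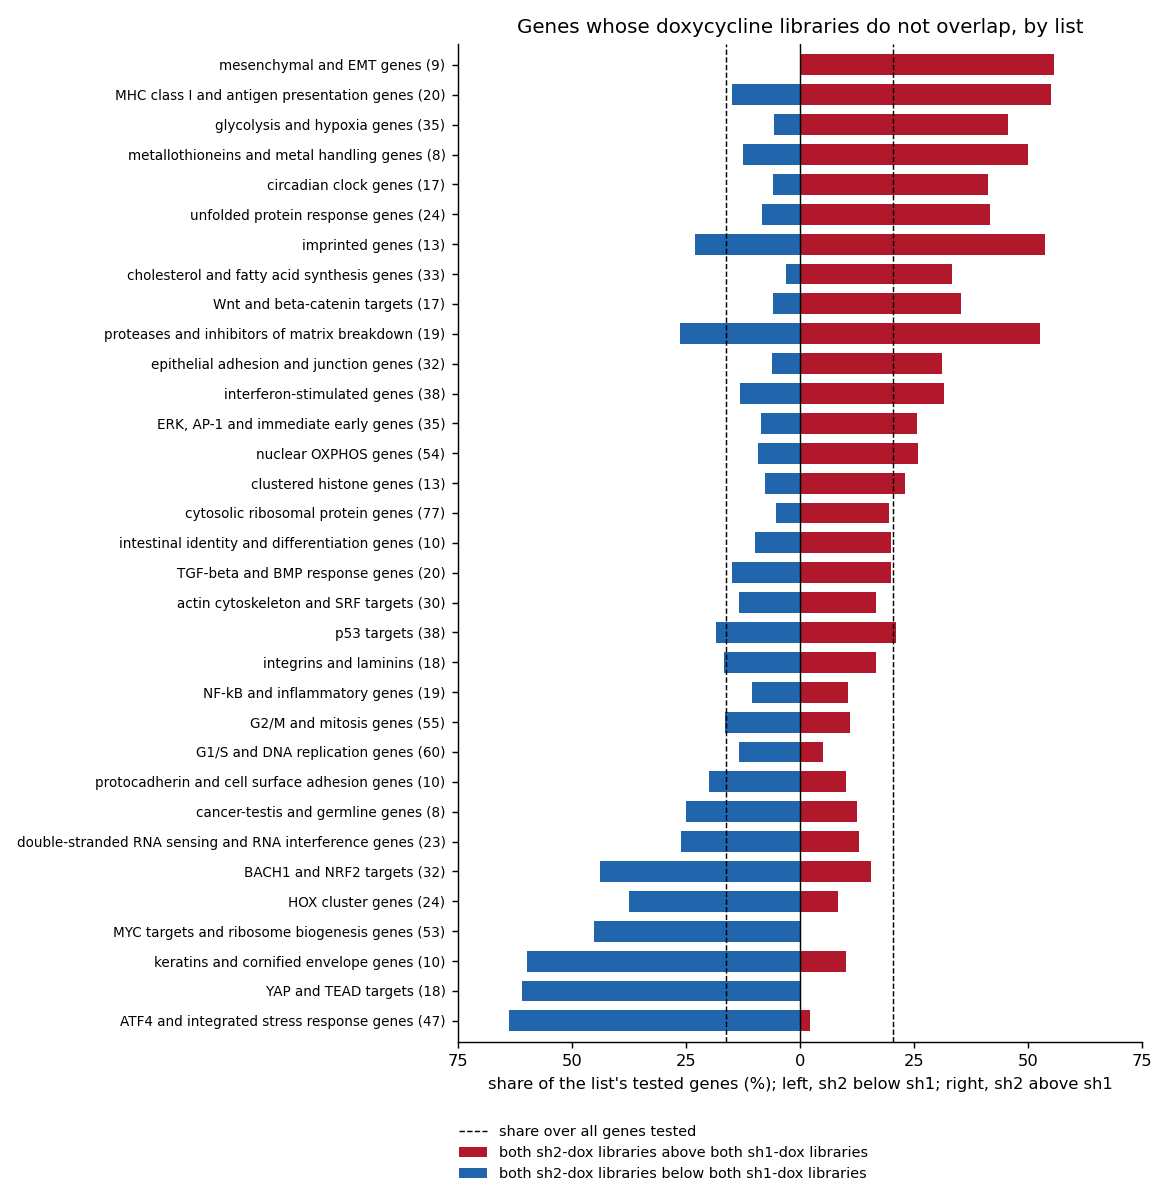
Share of each list's tested genes (number in parentheses) whose 2 sh2-dox libraries both lay above (right, red) or both below (left, blue) the 2 sh1-dox libraries; dashed lines are the shares over all 11761 genes. The stress response, YAP, keratin and MYC target lists lean to the left, and the mesenchymal, MHC class I, glycolysis, clock and unfolded protein lists to the right.

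Genes of the integrated stress response lay mostly below in sh2-dox. In this response kinases that sense amino acid lack, unfolded proteins, double-stranded RNA or heme lack phosphorylate the initiation factor eIF2, which favours translation of ATF4, and ATF4 activates genes of amino acid uptake, synthesis and tRNA charging. Of 47 tested members, 30 (63.8%) had both sh2-dox libraries below both sh1-dox libraries, and CTH alone (2.13%) had both above. STC2 was the only member past the adjusted threshold, 0 were higher, and 19 passed unadjusted in the lower direction (4.01% of all genes) and 0 in the higher (5.88%). The median log2 difference was -0.14. ATF4 itself was at 302.25 and 286.89 FPKM in sh2-dox and 358.29 and 315.76 FPKM in sh1-dox, lower without overlap but not past the test (limma, adjusted p = 0.292).

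Larger differences than that of ATF4 were seen in 3 targets named for their low p on the list, a choice that favours such sizes. CHAC1, which degrades glutathione, was at 5.97 and 7.12 FPKM in sh2-dox and 9.83 and 11.08 FPKM in sh1-dox (log2 difference -0.60; limma, adjusted p = 0.0895). SLC7A11, the cystine transporter, was at 8.50 and 9.44 FPKM in sh2-dox and 11.83 and 13.02 FPKM in sh1-dox (difference -0.43, adjusted p = 0.0895). PSAT1, an enzyme of serine synthesis, was at 108.66 and 118.71 FPKM in sh2-dox and 144.10 and 154.57 FPKM in sh1-dox (difference -0.39, adjusted p = 0.116). In these 3 genes the groups do not overlap, yet none passed with doxycycline. SLC7A5, the large neutral amino acid transporter, was 16.4% lower in sh2-dox (adjusted p = 0.236). Without doxycycline PSAT1 (-0.38, adjusted p = 0.0303) and SLC7A5 (-0.40, 0.0205) passed in limma. CHAC1 (adjusted p = 0.101) and SLC7A11 (0.0632) did not pass there. Further well-known members overlapped between the groups. ASNS, asparagine synthetase, was at 104.28 and 139.60 FPKM in sh2-dox and 138.11 and 160.95 FPKM in sh1-dox, and DDIT3, which encodes CHOP, at 15.43 and 22.33 FPKM in sh2-dox and 18.44 and 17.03 FPKM in sh1-dox. Without doxycycline 41 of the 47 differences were also below 0, 40 of them in genes below 0 with the drug, and the list's median was -0.15.

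**Figure D5:**
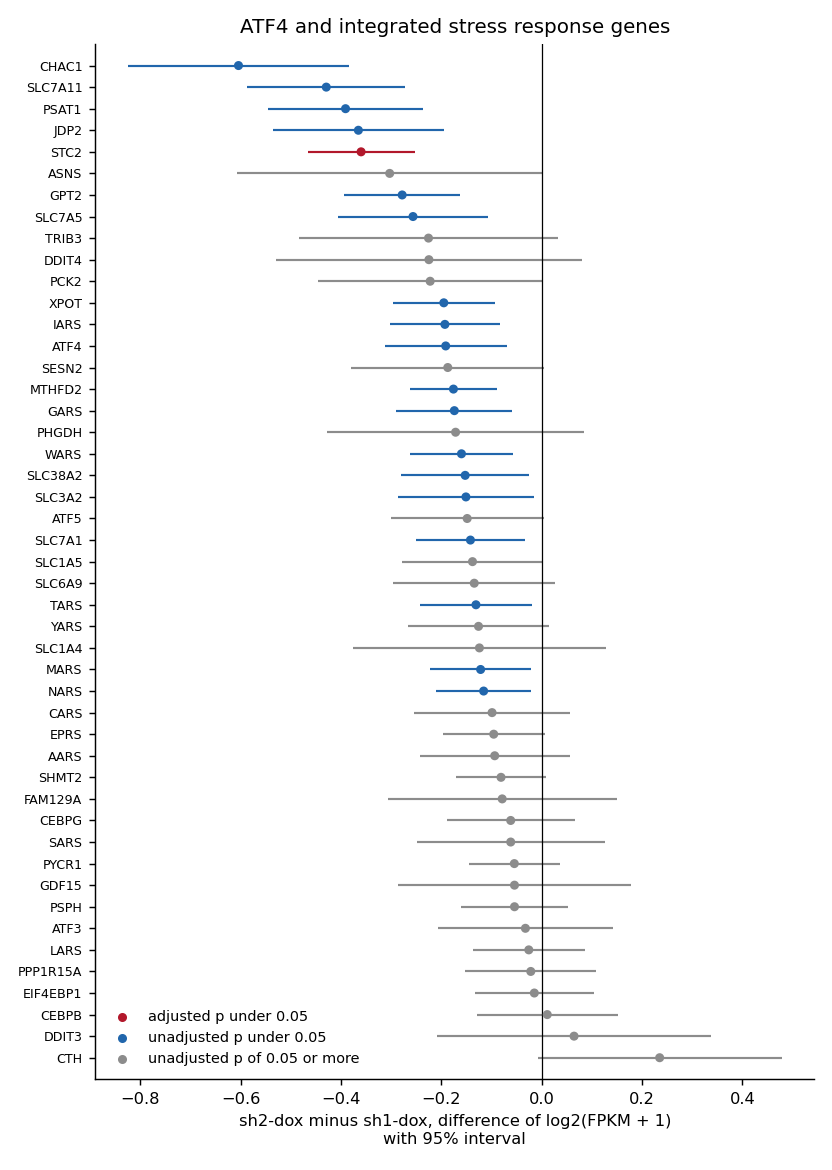
Log2 difference, sh2-dox minus sh1-dox, of log2(FPKM + 1) with its 95% interval for the 47 tested members of the ATF4 and integrated stress response list, in order of size. In 44 members the difference is below 0, and in 19 the whole interval is; STC2 is the only member with an adjusted p under 0.05.

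Antioxidant genes were more often below than above. Of 32 tested BACH1 and NRF2 targets, 14 (43.8%) were below without overlap and 5 (15.6%) above, with 0 past the adjusted threshold in limma and 8 past the unadjusted one, 7 of them lower. SLC7A11, described with the stress response, is also on this list and has its lowest p. TXNRD1, thioredoxin reductase, was at 147.56 and 146.95 FPKM in sh2-dox and 177.07 and 169.51 FPKM in sh1-dox (difference -0.23, adjusted p = 0.116). Its line difference without doxycycline passed in limma (-0.265, adjusted p = 0.0178). HMOX1, heme oxygenase and the classical BACH1 target, was at 13.57 and 12.90 FPKM in sh2-dox and 14.29 and 13.36 FPKM in sh1-dox, which overlap (interval -0.19 to 0.08). NQO1 was at 169.06 and 177.50 FPKM in sh2-dox and 173.69 and 174.19 FPKM in sh1-dox, with an interval of -0.10 to 0.08.

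Among MYC targets and ribosome biogenesis genes the lean was also to lower levels in sh2-dox. None of 53 members was above without overlap, 24 (45.3%) were below, and the median log2 difference was -0.07. Without doxycycline the list's median was -0.11. limma called 0, and 12 passed unadjusted, all lower. TFRC, the transferrin receptor, was at 46.84 and 40.50 FPKM in sh2-dox and 52.25 and 52.21 FPKM in sh1-dox (adjusted p = 0.234). DDX21, a nucleolar RNA helicase, NOP56, a core box C/D snoRNP protein, and WDR43, a small subunit processome factor, were 10.2% to 11.8% lower in sh2-dox. Beside them MYC had the values given earlier, with 1 sh2-dox library close to the sh1-dox libraries and the other lower.

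YAP and TEAD targets were below without overlap in 11 of 18 tested genes (61.1%) and above in 0, with a median of -0.08, 6 lower at an unadjusted p of 0.05 and 0 called by limma. AJUBA, a LIM protein of cell junctions, was at 10.98 and 10.67 FPKM in sh2-dox and 14.25 and 13.00 FPKM in sh1-dox (difference -0.31, adjusted p = 0.122). CTGF was at 1.32 and 1.45 FPKM in sh2-dox and 2.22 and 1.78 FPKM in sh1-dox (adjusted p = 0.379). Without doxycycline the list's median was larger, at -0.22. CAV1 and CPA4 are not on this list.

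Keratins and cornified envelope genes were below without overlap in 6 of 10 tested members (60.0%) and above in 1, KRT19. limma called 0, and 5 passed unadjusted, all lower. KRT80, a type II keratin, was at 1.89 and 2.43 FPKM in sh2-dox and 3.65 and 4.84 FPKM in sh1-dox, with a difference of -0.73 (adjusted p = 0.116). KRTAP2-3 was at 11.42 and 12.18 FPKM in sh2-dox and 15.50 and 15.10 FPKM in sh1-dox (difference -0.35, adjusted p = 0.122), and KRT8 at 1070.84 and 1030.52 FPKM in sh2-dox and 1150.90 and 1173.48 FPKM in sh1-dox (adjusted p = 0.236). Without doxycycline limma called KRT80 (-0.82, adjusted p = 0.0191), KRTAP2-3 (-0.87, 0.000563), KRT8 (-0.38, 0.00212) and KRT18 (-0.36, 0.00873) lower in sh2. KRT19 was not called there (-0.02, adjusted p = 0.863). The list's median was -0.30 without the drug and -0.14 with it. KRT8 and KRT18 also carry the lower sum of epithelial markers in sh2-dox. Whether that sum has a part in the keratin differences was not tested.

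Groups on the other side included the circadian clock. Its repressor and activator loops drive output genes such as DBP, a PAR bZIP factor. Of 17 tested clock genes 7 (41.2%) were above without overlap and CLOCK alone was below, and the 7 also passed unadjusted, with 0 called by limma and a median of 0.14. DBP was at 19.76 and 19.77 FPKM in sh2-dox and 13.86 and 10.66 FPKM in sh1-dox (difference 0.66, adjusted p = 0.0716), with the sh1-dox libraries apart from each other. NR1D1, which encodes the repressor REV-ERB alpha, was at 32.31 and 37.50 FPKM in sh2-dox and 26.00 and 25.23 FPKM in sh1-dox (difference 0.43, adjusted p = 0.116). PER1 and TEF were 34.0% and 31.0% higher in sh2-dox (adjusted p = 0.222 and 0.234). Without doxycycline DBP was at 11.36 and 12.60 FPKM in sh2 and 6.71 and 6.04 FPKM in sh1, a line difference past the threshold (0.82, adjusted p = 0.00528).

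Glycolysis and hypoxia genes were above without overlap in 16 of 35 tested members (45.7%) and below in 2, with a median of 0.04. limma called 0, and 7 passed unadjusted, all higher. ALDOC, an aldolase, was at 9.72 and 10.53 FPKM in sh2-dox and 6.87 and 7.43 FPKM in sh1-dox. Its difference of 0.45 had the lowest adjusted p among genes not called (0.0623), and without doxycycline it passed (0.69, adjusted p = 0.00186). ENO2, an enolase, was at 52.87 and 51.01 FPKM in sh2-dox and 45.14 and 43.31 FPKM in sh1-dox (adjusted p = 0.234). Cholesterol and fatty acid synthesis genes had 11 of 33 members (33.3%) above and 1 below, 7 past the unadjusted threshold and 0 called. INSIG1, a sterol-regulated ER protein, was at 7.71 and 7.57 FPKM in sh2-dox and 6.36 and 6.32 FPKM in sh1-dox (adjusted p = 0.234).

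Among genes of the endoplasmic reticulum and the cell surface, the unfolded protein list had 10 of 24 members (41.7%) above and 2 below. PDIA4, a disulfide isomerase, was at 178.36 and 177.21 FPKM in sh2-dox and 163.93 and 160.32 FPKM in sh1-dox, and CALR, calreticulin, was 8.41% higher. MHC class I and antigen presentation genes had 11 of 20 (55.0%) above and 3 below. HLA-E, a nonclassical class I molecule, was at 56.50 and 55.24 FPKM in sh2-dox and 50.26 and 49.16 FPKM in sh1-dox (difference 0.17, adjusted p = 0.234). Of 9 tested mesenchymal genes 5 (55.6%) were above and 0 below, among them LOXL2, a lysyl oxidase, at 14.34 and 13.95 FPKM in sh2-dox and 11.63 and 11.26 FPKM in sh1-dox (adjusted p = 0.117). limma called 0 genes in each of these 3 lists. Unadjusted, 7 genes of the unfolded protein list passed, all higher, 6 higher and 1 lower of the MHC list, and 4 of the mesenchymal list, all higher. Epithelial adhesion and junction genes also leaned above, with 10 of 32 (31.2%) above and 2 (6.25%) below. In that list limma called 0, and 3 passed unadjusted, all higher. Fibroblast marker sums overlapped between the induced lines, as given earlier. The 6 immune markers summed to 9.85 and 10.23 FPKM in sh2-dox and to 8.05 and 8.55 FPKM in sh1-dox, mostly CD68, and their part in the MHC and interferon lists was not tested.

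Proteases and inhibitors of matrix breakdown split. Of 19 tested, 10 (52.6%) were above and 5 (26.3%) below, with CPA4 the only call. PLAUR, the urokinase receptor, was at 32.61 and 34.92 FPKM in sh2-dox and 28.36 and 29.29 FPKM in sh1-dox (adjusted p = 0.212). ADAM19, a sheddase, and CTSB, cathepsin B, were 13.0% and 13.8% higher in sh2-dox. Of 13 imprinted genes 7 were above and 3 below, including CDKN1C and IGF2 at 29.2% and 21.6% higher mean FPKM, neither past the test. Of 24 HOX genes 9 (37.5%) were below and 2 above. HOXA9 was at 45.20 and 43.31 FPKM in sh2-dox and 47.91 and 48.96 FPKM in sh1-dox (adjusted p = 0.361).

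Some lists stayed near the shares over all genes. Among 38 p53 targets 8 (21.1%) were above and 7 (18.4%) below. Of 30 actin and SRF targets 5 (16.7%) were above and 4 (13.3%) below. Of 55 G2/M and mitosis genes 9 (16.4%) were below, near the share of all genes, and 6 (10.9%, against 20.3% of all genes) above. Lower shares in both directions were seen in NF-kB and inflammatory genes, with 2 of 19 (10.5%) above and 2 below, and 0 past the unadjusted threshold. Interferon-stimulated genes, of interest because hairpin RNA can trigger sensors of double-stranded RNA, had 12 of 38 (31.6%, against 20.3% of all genes) above and 5 (13.2%) below, with 0 called by limma, 3 higher and 1 lower unadjusted. The list of double-stranded RNA sensing and RNA interference genes had 3 of 23 (13.0%) above and 6 (26.1%, against 16.3% of all genes) below, with 0 past the unadjusted threshold in limma.

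Another 3 genes close to the threshold were chosen after their values were seen, 2 of them on no list. SMAD7, the inhibitory SMAD of TGF-beta signalling and the member of lowest p on the TGF-beta and BMP list, was at 2.45 and 2.28 FPKM in sh2-dox and 3.70 and 3.66 FPKM in sh1-dox (difference -0.48; limma, adjusted p = 0.0894). SAT1, the spermidine acetyltransferase, was at 157.02 and 189.75 FPKM in sh2-dox and 127.24 and 131.72 FPKM in sh1-dox (difference 0.41, adjusted p = 0.101). CYB561D2, a cytochrome b561 family protein, averaged 4.32 ± 0.212 FPKM in sh2-dox and 6.17 ± 0.233 FPKM in sh1-dox (SD, n = 2 each; adjusted p = 0.0815). In all 3 the induced groups do not overlap. Without doxycycline CYB561D2 went the other way, at 5.34 and 5.39 FPKM in sh2 and 4.52 and 4.81 FPKM in sh1. SMAD7 and SAT1 kept their direction there, with log2 differences of -0.19 and 0.61.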

How the data were processed

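The deposited values are FPKM, which the authors scaled to transcript length and mapped fragments. The tools were HISAT and Bowtie2 and the build hg19, per the submitters' processing notes. The sources used here name no version, quantifier or annotation. Total reads cannot be recovered from FPKM, so counting error is unknown. The table names the second hairpin sh3. It was taken as sh2 by elimination, which is not proven. Groups follow the sample titles, since the source description says induced for all 8 libraries. Symbols turned into dates (27) were restored from Entrez identifiers.

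Genes were tested on log2(FPKM + 1) in limma 3.58.1 (R 4.3.3), 1 mean per group over 8 libraries (4 residual degrees of freedom), with a variance trend, two-sided, and Benjamini-Hochberg adjustment over the 11761 genes. An exact permutation test of 2 against 2 cannot go below p = 0.333. Log2 differences understate those of low genes. Named genes were HOXB8, BACH1, MYC, HOXB7 and HOXB9, up to 15 calls each way, 5 each way for the difference of effects, and up to 4 members of lowest p per list, beside others said to be chosen later. Members, 33 pathway lists and 5 marker lists were chosen with earlier results of these data known. Promoters are from RefSeq, transcripts from GENCODE v29. The scripts were tested on simulated data. Figures used Python 3.11.15 and matplotlib 3.10.9.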

Additional observations from a re-analysis of the deposited data

How the results depend on the processing

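The count of genes called between sh2-dox and sh1-dox, 7, depended on the settings. With the 4 doxycycline libraries alone it was 2, CPA4 and, from outside the 7, MAGEA2. It was 0 with no filter on low values, 3 after quantile normalization and 0 without the variance trend. After quantile normalization of those 4 libraries alone it was 0, an alternative chosen after the data were seen, as was summing gene pairs. A pseudocount of 0.1, a filter over all 8 libraries, median ratio scaling and robust moderation kept all 7 genes, and a filter of 5 FPKM kept them and added DBP and ALDOC (9). Leaving out each library gave 0 to 3. CPA4 was lost with no filter (adjusted p = 0.0938), with no trend (0.0643), without replicate 2 of sh1-dox (0.0805) and in the added quantile setting (0.0544). With a replicate block the count was 21, adding CHAC1, SLC7A11, PSAT1, SLC7A5, TXNRD1, KRT80, SAT1, CYB561D2, NR1D1, DBP and ALDOC among the genes named. The labels name no shared batch and there are only 2 numbers, so they were not taken as pairs. Deviations of same-numbered sh2-dox and sh1-dox libraries correlated at 0.222, other pairs of groups at -0.0232 to 0.187, and the third principal component (12%) separated replicate 1 from replicate 2 in all 4 groups, a hint from the data that the numbers may mark something shared. The count without doxycycline, 163, was 23 with no filter, 63 without the trend, 495 with the replicate block and 16 to 355 leaving out a library. The difference of the effects stayed at 0 except for 2 genes without either sh1-no-dox library. HOXB8 was called in 0 of 20 alternatives (adjusted p 0.382 to 0.858). Of the named genes, 2 changed sign: leaving out a sh2-dox library, DDIT3 measured -0.19 (replicate 2) and 0.32 (replicate 1), and NQO1 0.029 (replicate 1) and -0.041 (replicate 2). The causes were not tested. Low genes are limited by their wide intervals.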
